A study of Mus musculus with 6 samples.

Results

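Fatty acid oxidation was examined through 31 genes that encode the enzymes of mitochondrial and peroxisomal fatty acid breakdown and the peroxisome proliferator-activated receptors (PPARs). The genes were chosen by function, as a list of names, with earlier results of these data known. They were found by symbol among the 41388 genes of the deposited tables, where all 31 are protein-coding. They fall into 3 nuclear receptors, 21 genes of mitochondrial oxidation and its fuel supply, and 7 peroxisomal genes. Crat and Eci2 are known in both organelles and are kept with the mitochondrial (Crat) and peroxisomal (Eci2) genes. RNA-seq had been made from foamy and non-foamy macrophages sorted from the intima of the aorta, to compare the transcripts of the 2 populations. All libraries came from ApoE -/- mice on the C57BL/6 strain, which lack apolipoprotein E and develop atherosclerotic plaques. Per the series design, 6 such mice had been on Western diet over 28 weeks. The gate for foamy macrophages took live cells positive for CD64 and CD11b with high side scatter and a high signal of BODIPY, which stains neutral lipid. The gate for non-foamy macrophages took the same cells where side scatter and BODIPY were low. Each population has 3 libraries. Which mice went into which library is not given in the labels, so the spread behind each p-value is that of libraries and may be technical.

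Fatty acids reach the mitochondrial matrix through the carnitine shuttle and are then shortened in a repeated spiral of dehydrogenation, hydration, a further dehydrogenation and thiolytic cleavage, which releases acetyl-CoA. Peroxisomes run a parallel spiral on very long and branched chains. PPARs are lipid-activated transcription factors that pair with RXR, and PPAR gamma is known in macrophages as a regulator of lipid uptake genes.

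In foamy macrophages the transcripts of 3 mitochondrial enzymes, Echs1, Hadh and Cpt1a, were 1.91 to 2.50 times as abundant as in non-foamy macrophages. That of 1 mitochondrial enzyme, Acat1, was 1.90 times as abundant in non-foamy macrophages. Of these, only Echs1 passed under all 15 alternative settings of the analysis. The calls of Hadh and Acat1 were each lost under 7 of them and that of Cpt1a under 8. None of the 7 peroxisomal genes and neither PPAR that could be tested passed the test. Levels are TMM-scaled CPM, the reads of a gene relative to all reads of its library, and genes were tested with edgeR across 11303 genes with Benjamini-Hochberg adjusted p under 0.05 as the threshold. Of the 31 genes, 29 had enough counts to be tested. Among all tested genes 5.41% passed. At that share, none among 7 genes is a common outcome. Higher in foamy macrophages were 3 of 29 (10.3%), where 2.5% of all tested genes were called higher. Lower was 1 of 29 (3.45%), where 2.9% of all tested genes were called lower. The 3 foamy libraries all lay above the 3 non-foamy libraries in 12 of 29 genes (41.4%, against 12.4% of all tested genes) and below them in 1 (against 13.3%), and the groups did not overlap in 25.7% of all tested genes. The fitted log2 fold change, foamy over non-foamy, was above 0 in 22 of 29 genes (75.9%, against 47.2% of all tested genes), with a median of 0.42 beside -0.04 over all tested genes. At an unadjusted edgeR p under 0.05, 11 were higher and 1 lower, where 8.63% and 10.1% of all tested genes were. With libraries scaled by total counts only, the median of all tested genes was -0.31 and that of the 29 genes 0.15, so that differences are best read relative to the other genes. These shares are descriptions of a chosen gene list and carry no test of the list.

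The libraries held 18592421 to 24279802 counts in genes in foamy and 15628627 to 24619075 in non-foamy macrophages, and 15595 to 17757 genes had a count in foamy against 19380 to 24701 in non-foamy libraries. The macrophage markers were present in all 6 libraries, with 2 of 6 higher and 3 of 6 lower in foamy macrophages. Of 11 tested monocyte markers, 8 fell, and the 12 listed summed to 169.7 to 251.8 CPM in foamy against 851.3 to 1244 CPM in non-foamy libraries. None of the monocyte markers was at 0 in all 6 libraries. B cell markers summed to 94.2 to 124 CPM in foamy against 579 to 694 CPM in non-foamy libraries, and Ighm, which made up most of each sum, fell. Dendritic cell markers summed to 0.332 to 15.99 CPM in foamy against 33.5 to 256 CPM in non-foamy libraries, and Cd209a, the only such marker tested, did not pass in edgeR but was called lower by DESeq2. T cell markers summed to 12.1 to 24.3 CPM in foamy against 0.812 to 3.69 CPM in non-foamy libraries, and Cd4 rose. Cd4 alone had 11.4, 18.2 and 21.4 CPM in foamy libraries, so the foamy sums are mostly Cd4. The other T cell markers, Cd3d, Cd3e, Cd3g, Cd8a, Trac and Lck, were too sparse to be tested. Neutrophil markers summed to 31.5 to 48.4 CPM in foamy against 5.98 to 37.6 CPM in non-foamy libraries, with Mmp8 higher and S100a9 lower in foamy macrophages. The foamy sums are mostly Mmp8, at 40.5, 29.9 and 44.7 CPM. No smooth muscle, endothelial or fibroblast marker passed edgeR's test, had an unadjusted p under 0.05 or was called by DESeq2 or limma-voom. Fibroblast markers were nonetheless present and uneven within each population. They summed to 6.69, 2.90 and 171 CPM in foamy and 130, 12.4 and 307 CPM in non-foamy libraries. Smooth muscle markers summed to 3.27 to 28.2 CPM in foamy against 4.62 to 23.9 CPM in non-foamy libraries. Endothelial markers summed to 9.92 to 15.1 CPM in foamy against 12.8 to 16.6 CPM in non-foamy libraries. Of 18 tested immediate early and heat shock genes, which are known to respond to tissue digestion, 14 fell, with sums of 2615 to 3238 CPM in foamy against 6148 to 8460 CPM in non-foamy libraries. In bulk samples, fewer cells of a type and less RNA per cell cannot be told apart, and the part of any of these lists in the results on oxidation genes was not tested. Adipocyte markers, from tissues rich in these enzymes, summed to at most 0.279 CPM in foamy against at most 2.76 CPM in non-foamy libraries, and cardiomyocyte markers to at most 1.62 CPM in foamy against at most 4.82 CPM in non-foamy libraries.

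**Figure D1:**
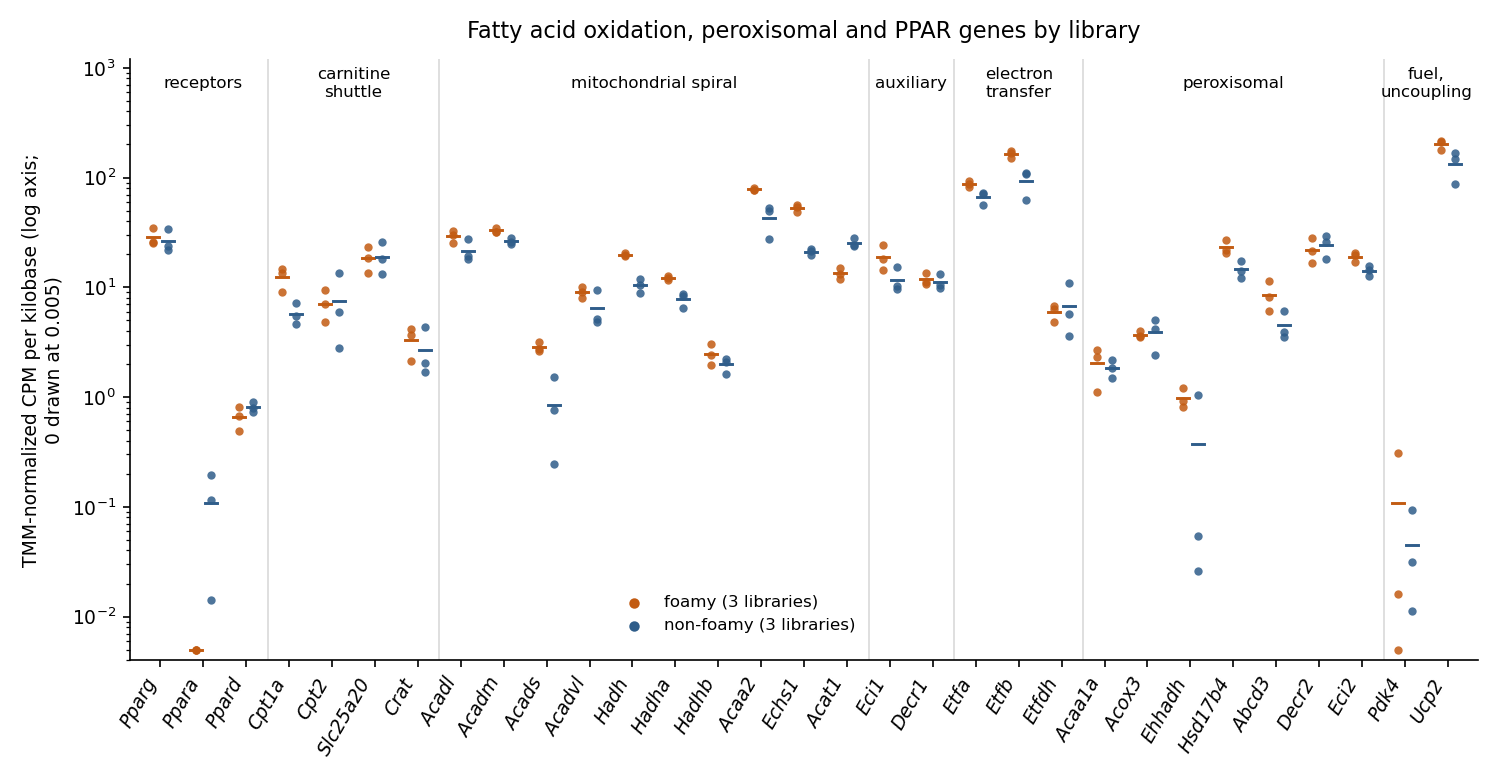
Level of each of the 31 genes in every library, grouped by role, on a log axis of TMM-normalized CPM per kilobase of annotated exons. Points are libraries, foamy in orange and non-foamy in blue, ticks are means, and values of 0 are drawn at the bottom. All foamy points lie above all non-foamy points in 12 of 29 tested genes and below them in 1 (12.4% and 13.3% of all tested genes). Among these are Echs1, Hadh, Cpt1a and Acat1, and the peroxisomal Hsd17b4 and Eci2. Pparg, Cpt2 and the other peroxisomal genes show groups that overlap.

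Of the receptors, PPAR gamma, encoded by Pparg on chromosome 6 (115361221 to 115490401, plus strand, GRCm38), had 50.9, 50.1 and 69.0 CPM in foamy libraries and 47.0, 43.6 and 67.4 CPM in non-foamy libraries. The groups overlapped almost entirely (log2 fold change 0.10 with SE 0.25, adjusted p = 0.89 in edgeR). The sign of the Pparg difference turned under 3 of 15 alternatives. Ppard, the widely expressed receptor PPAR delta, had 3.09, 2.28 and 3.72 CPM in foamy libraries and 3.41, 4.18 and 3.66 CPM in non-foamy libraries. These values overlapped as well (log2 fold change -0.31 with SE 0.63, adjusted p = 0.87 in edgeR). Per kilobase of annotated exons, Pparg averaged 28.6 CPM in foamy against 26.6 CPM in non-foamy macrophages, and Ppard 0.654 CPM in foamy against 0.810 CPM in non-foamy macrophages. Pparg was therefore the most abundant PPAR transcript in both populations.

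Ppara, which encodes the receptor that drives hepatic fatty acid oxidation in fasting, had 0, 0 and 0 counts in foamy libraries and 1, 8 and 19 counts in non-foamy libraries. It was too sparse for the test. Against a floor of 3 counts over the foamy group, the limit was 8.66-fold lower in foamy macrophages. This limit covers counting error of the foamy zeros only and takes the non-foamy counts as exact. Non-foamy replicate 3 held 19 of the 28 counts, and without it the limit was 4.71-fold. Non-foamy libraries also had more genes with a count, 19380 to 24701 against 15595 to 17757 in foamy libraries. The part of this in the Ppara counts was not tested. With no filter on low counts, edgeR did not call Ppara (adjusted p = 0.12). Even in non-foamy macrophages the level over the group was 0.451 CPM.

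Of the carnitine shuttle, Cpt1a encodes the liver-type carnitine palmitoyltransferase of the outer mitochondrial membrane, the rate-controlling entry step of the pathway. The gene (ENSMUSG00000024900) lies on chromosome 19 (3323301 to 3385732, plus strand). Cpt1a had 38.6, 57.6 and 62.6 CPM in foamy libraries and 30.9, 19.8 and 23.5 CPM in non-foamy libraries. Every foamy library lay above every non-foamy library. Cpt1a rose 2.14-fold (log2 fold change 1.1 with SE 0.28, adjusted p = 0.048 in edgeR), close to the threshold, and the call was lost under 8 of 15 alternatives, where the log2 fold change was 0.82 to 1.1. Among these were the fits without foamy replicate 2 (1.04), foamy replicate 3 (0.96), non-foamy replicate 2 (0.96) or non-foamy replicate 3 (1.07).

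The other shuttle genes did not pass the test. Cpt2, the partner enzyme of the inner membrane, had 16.9, 11.5 and 22.4 CPM in foamy libraries against 6.66, 32.5 and 14.3 CPM in non-foamy libraries, and non-foamy replicates held both the lowest and the highest value. Slc25a20, the carnitine-acylcarnitine exchanger between them, had 41.7, 24.0 and 32.6 CPM in foamy against 23.6, 45.7 and 32.4 CPM in non-foamy libraries. Crat, carnitine acetyltransferase, averaged 17.8 ± 5.74 CPM in foamy against 14.5 ± 7.78 CPM in non-foamy macrophages (SD, n = 3 each). All of these groups overlapped, with log2 fold changes of -0.07 (Cpt2), -0.05 (Slc25a20) and 0.30 (Crat) and edgeR adjusted p of 0.80 or more.

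Of 10 tested enzymes of the mitochondrial spiral, 2 rose, 1 fell and 7 did not pass the test. Of all tested genes, 2.5% were called higher and 2.9% lower. The log2 fold change was above 0 in 9 of the 10 enzymes, all but Acat1. Echs1, the short-chain enoyl-CoA hydratase that adds water to the shortened chain, had 297, 257 and 285 CPM in foamy libraries and 117, 104 and 114 CPM in non-foamy libraries. The lowest foamy library, at 257 CPM, stood well above the highest non-foamy library, at 117 CPM. Echs1 rose 2.50-fold (log2 fold change 1.32 with SE 0.17, adjusted p = 0.0012 in edgeR), and it passed under all 15 alternatives, with a log2 fold change of 1.05 to 1.43. The gene (ENSMUSG00000025465) lies on chromosome 7 (140105710 to 140116476, minus strand).

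Hadh encodes the medium- and short-chain hydroxyacyl-CoA dehydrogenase that follows the hydratase in the spiral. The gene (ENSMUSG00000027984) lies on chromosome 3 (131233419 to 131272101, minus strand). Hadh had 96.0, 97.3 and 102 CPM in foamy libraries and 52.1, 44.1 and 58.5 CPM in non-foamy libraries, with no overlap. It rose 1.91-fold (log2 fold change 0.93 with SE 0.20, adjusted p = 0.023 in edgeR). Under 7 of 15 alternatives the Hadh call was lost, at log2 fold changes of 0.66 to 0.96, among them the fits without foamy replicate 1 (0.96), 2 (0.95) or 3 (0.91) or without non-foamy replicate 2 (0.84).

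Acat1 ran the other way. It encodes the mitochondrial acetoacetyl-CoA thiolase, which acts in ketone body use and isoleucine breakdown, and it is not the cholesterol acyltransferase Soat1 that shares an older name with it. Acat1 (ENSMUSG00000032047), on chromosome 9 (53580522 to 53610382, minus strand), had 45.2, 49.8 and 56.3 CPM in foamy libraries and 89.6, 107 and 90.7 CPM in non-foamy libraries. All foamy libraries lay below all non-foamy libraries. Acat1 fell by 0.92 on the log2 scale (SE 0.21, edgeR adjusted p = 0.024), and the call was lost under 7 of 15 alternatives, at log2 fold changes of -0.82 to -1.0. Among these were the fits without foamy replicate 1 (-0.84), 2 (-0.91) or 3 (-1.0) or without non-foamy replicate 2 (-0.84).

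A ratio of these genes within a library does not depend on how libraries are scaled. Per kilobase, Echs1 over Acat1 was 4.68, 3.68 and 3.61 in foamy libraries and 0.933, 0.697 and 0.892 in non-foamy libraries. The length is that of all annotated exons of a gene, 5274 bases for Echs1 and 3758 for Acat1. By this measure Echs1 stood above Acat1 in every foamy library and below it in every non-foamy library. Without the division by length, non-foamy libraries had 117, 104 and 114 CPM of Echs1 against 89.6, 107 and 90.7 CPM of Acat1. The order within non-foamy libraries therefore depends on the length used, whereas the shift of the ratio between populations does not. Hadh over Acat1 was 1.6, 1.47 and 1.37 in foamy libraries and 0.439, 0.312 and 0.487 in non-foamy libraries. Both ratios gave a two-sided exact permutation p of 0.10, the smallest that 3 libraries against 3 allow, and they were chosen after the values were seen.

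**Figure D2:**
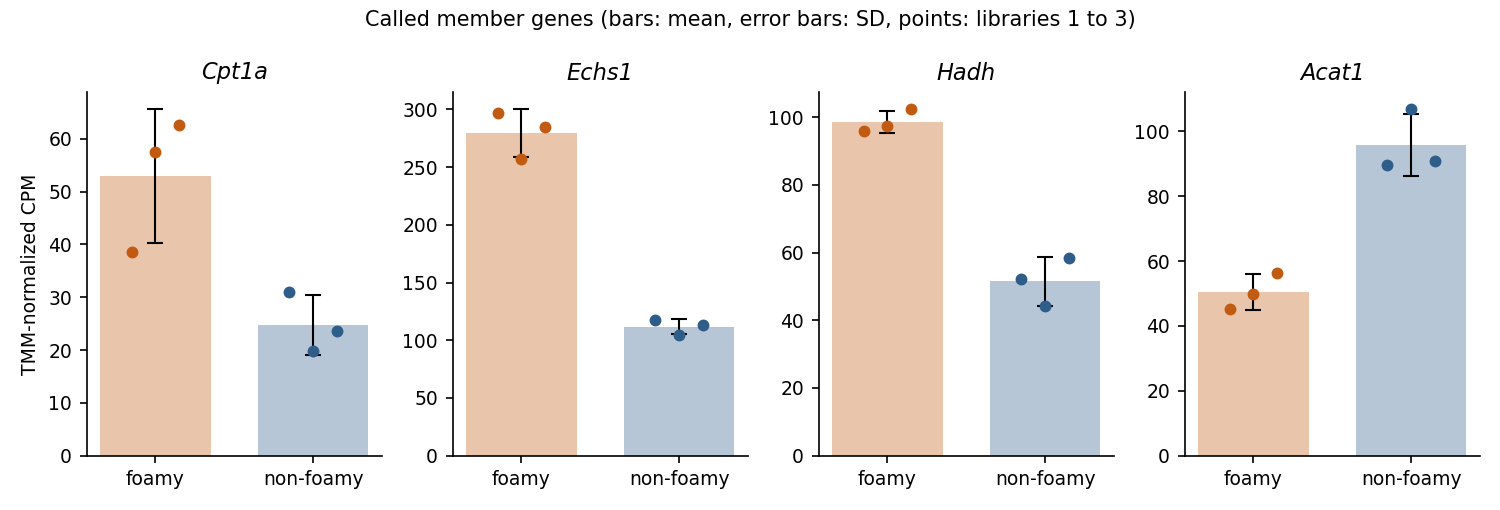
TMM-normalized CPM of Cpt1a, Echs1, Hadh and Acat1 in each library, foamy on the left and non-foamy on the right of each panel, with points for libraries, bars for the mean and error bars for the SD. Foamy values are higher for the first 3 genes and lower for Acat1, with no overlap in any panel.

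The sequences upstream of the genes that rose are shown because PPAR-RXR dimers bind a direct repeat of the motif AGGTCA spaced by 1 base, and because the pair Hadha and Hadhb is transcribed divergently from a shared interval. They are from the RefSeq promoter table of GRCm38.p6, kept to bases outside annotated exons, and are written 5′ to 3′ on the strand of the gene. Capitals mark a single AGGTCA or a GC box GGGCGG on either strand. The Echs1 window is chr7:140116477-140116671 (minus strand, inside the gene Paox), the Hadh window chr3:131272102-131272351 (minus strand), the Cpt1a window chr19:3323051-3323284 (plus strand, within the bounds of Cpt1a in GENCODE M21) and the Hadha-Hadhb interval chr5:30155163-30155247 (plus strand).
Echs1: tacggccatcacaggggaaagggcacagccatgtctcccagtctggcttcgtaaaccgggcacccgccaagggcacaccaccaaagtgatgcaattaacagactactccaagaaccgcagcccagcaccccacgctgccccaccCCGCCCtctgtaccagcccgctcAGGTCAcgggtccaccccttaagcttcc
Hadh: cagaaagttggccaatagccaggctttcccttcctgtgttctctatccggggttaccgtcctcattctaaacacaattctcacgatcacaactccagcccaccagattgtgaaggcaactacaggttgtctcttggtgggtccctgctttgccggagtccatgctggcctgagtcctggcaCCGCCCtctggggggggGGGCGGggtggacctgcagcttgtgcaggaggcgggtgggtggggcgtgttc
Cpt1a: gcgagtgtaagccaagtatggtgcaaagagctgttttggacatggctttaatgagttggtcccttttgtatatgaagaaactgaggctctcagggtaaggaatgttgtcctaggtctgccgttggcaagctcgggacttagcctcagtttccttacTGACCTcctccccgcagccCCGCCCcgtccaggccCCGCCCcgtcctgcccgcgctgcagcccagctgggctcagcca
Hadha-Hadhb interval: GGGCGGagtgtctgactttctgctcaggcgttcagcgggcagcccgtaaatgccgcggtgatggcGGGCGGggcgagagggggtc

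The printed Echs1 window holds 1 AGGTCA and 1 GC box, that of Cpt1a 1 AGGTCA and 2 GC boxes, that of Hadh 2 GC boxes and no AGGTCA, and the Hadha-Hadhb interval 2 GC boxes. Over the 29 windows of 250 upstream bases for 26 of the 31 genes, both strands were searched. The full repeat AGGTCANAGGTCA was in none of them and in 0.0335% of all 32851 windows, and the looser form AGGNCANAGGNCA in none and in 0.338%. The single AGGTCA was in 6 of 29 windows (14% of all windows), those of Acadm, Acadvl, Cpt1a, Echs1 and Pparg, and the GC box in 20 of 29 (32.7% of all windows). CCAAT was in 12 of 29 windows (33.8% of all windows). A match is a description of letters, and these windows leave out introns and distal sites.

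Among the 29 genes, Acaa2 and Etfb came closest to the threshold without passing it. Acaa2, the mitochondrial 3-ketoacyl-CoA thiolase that closes the spiral, had 118, 121 and 117 CPM in foamy libraries and 41.4, 79.8 and 74.9 CPM in non-foamy libraries. The groups did not overlap, and non-foamy replicate 1 stood lowest (log2 fold change 0.86 with SE 0.25, adjusted p = 0.080 in edgeR). Etfb, the beta subunit of the electron transfer flavoprotein, which takes electrons from the acyl-CoA dehydrogenases, had 191, 197 and 171 CPM in foamy libraries and 71.2, 125 and 123 CPM in non-foamy libraries. Here too non-foamy replicate 1 stood lowest, and the groups did not overlap (log2 fold change 0.81 with SE 0.23, adjusted p = 0.070 in edgeR). DESeq2 called 5 of the 29 genes higher and 1 lower, where it called 4.62% and 5.69% of all tested genes (10.3% in either direction). It called both of these genes, with a log2 fold change of 0.86 for Acaa2 and 0.81 for Etfb, as did edgeR with no filter and with a stricter filter.

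The acyl-CoA dehydrogenases, which open each turn of the spiral, did not pass the test at any chain length. Acadm, for medium chains, had 93.4, 102 and 94.4 CPM in foamy libraries and 76.2, 82.1 and 73.1 CPM in non-foamy libraries, a narrow gap without overlap (log2 fold change 0.33 with SE 0.19, adjusted p = 0.40 in edgeR). Acads, for short chains, had 7.21, 5.91 and 6.26 CPM in foamy libraries and 3.47, 0.550 and 1.73 CPM in non-foamy libraries. Foamy libraries held 106 to 152 Acads counts and non-foamy libraries 10 to 64, so the non-foamy libraries varied more among themselves (log2 fold change 1.75 with SE 0.72, adjusted p = 0.22 in edgeR). Without non-foamy replicate 1 the log2 fold change of Acads was 2.48, still without a call. Acadl, for long chains, averaged 58.6 ± 7.23 CPM in foamy against 43.3 ± 10.2 CPM in non-foamy macrophages (SD, n = 3 each). Acadvl, for very long chains, averaged 24.2 ± 2.79 CPM in foamy against 17.5 ± 6.93 CPM in non-foamy macrophages. Of these 4 genes, the Acadl and Acadvl groups overlapped and the Acadm and Acads groups did not. Acadvl shares 1151 of its 2686 exonic bases with Dvl2 on the other strand, whose reads cannot be told apart from its own without strand. Dvl2 had at most 2.26 CPM in any library. Of the 31 genes, 7 share exonic bases with another gene, and the 4 genes that passed the test are among the 24 that share none.

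Hadha and Hadhb encode the subunits of the trifunctional protein, which carries out the later steps on long chains. Hadha had 68.5, 65.4 and 62.4 CPM in foamy libraries and 46.1, 44.6 and 34.4 CPM in non-foamy libraries, without overlap (log2 fold change 0.65 with SE 0.22, adjusted p = 0.13 in edgeR). Hadhb had 16.1, 12.8 and 20.1 CPM in foamy libraries and 10.8, 13.9 and 14.7 CPM in non-foamy libraries, with overlap (log2 fold change 0.31 with SE 0.35, adjusted p = 0.72 in edgeR). Neither passed the test. Per kilobase of annotated exons, Hadha over Hadhb was 5.26, 6.30 and 3.84 in foamy libraries. It was 5.29, 3.97 and 2.88 in non-foamy libraries (two-sided exact permutation p = 0.50). Hadha stood above Hadhb in CPM as well in all 6, while the size of the ratio depends on the lengths used.

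Of the auxiliary enzymes that handle unsaturated chains in mitochondria, Eci1, an enoyl-CoA isomerase, averaged 20.7 ± 5.56 CPM in foamy against 12.75 ± 3.37 CPM in non-foamy macrophages, and Decr1, a dienoyl-CoA reductase, 45.6 ± 5.81 CPM in foamy against 43.1 ± 6.91 CPM in non-foamy macrophages (SD, n = 3 each). Both overlapped between populations. Etfa, the alpha subunit of the electron transfer flavoprotein, had 172, 162 and 152 CPM in foamy libraries and 103, 133 and 130 CPM in non-foamy libraries, with no overlap but no call (log2 fold change 0.41 with SE 0.18, adjusted p = 0.26 in edgeR). Etfdh, which passes these electrons to ubiquinone, had 45.6, 42.7 and 32.7 CPM in foamy libraries and 74.6, 24.2 and 38.3 CPM in non-foamy libraries. Non-foamy replicate 1 held the highest Etfdh value although it held the lowest Etfa and Etfb values. Without that library the log2 fold change of Etfdh was 0.36, against -0.18 with it.

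**Figure D3:**
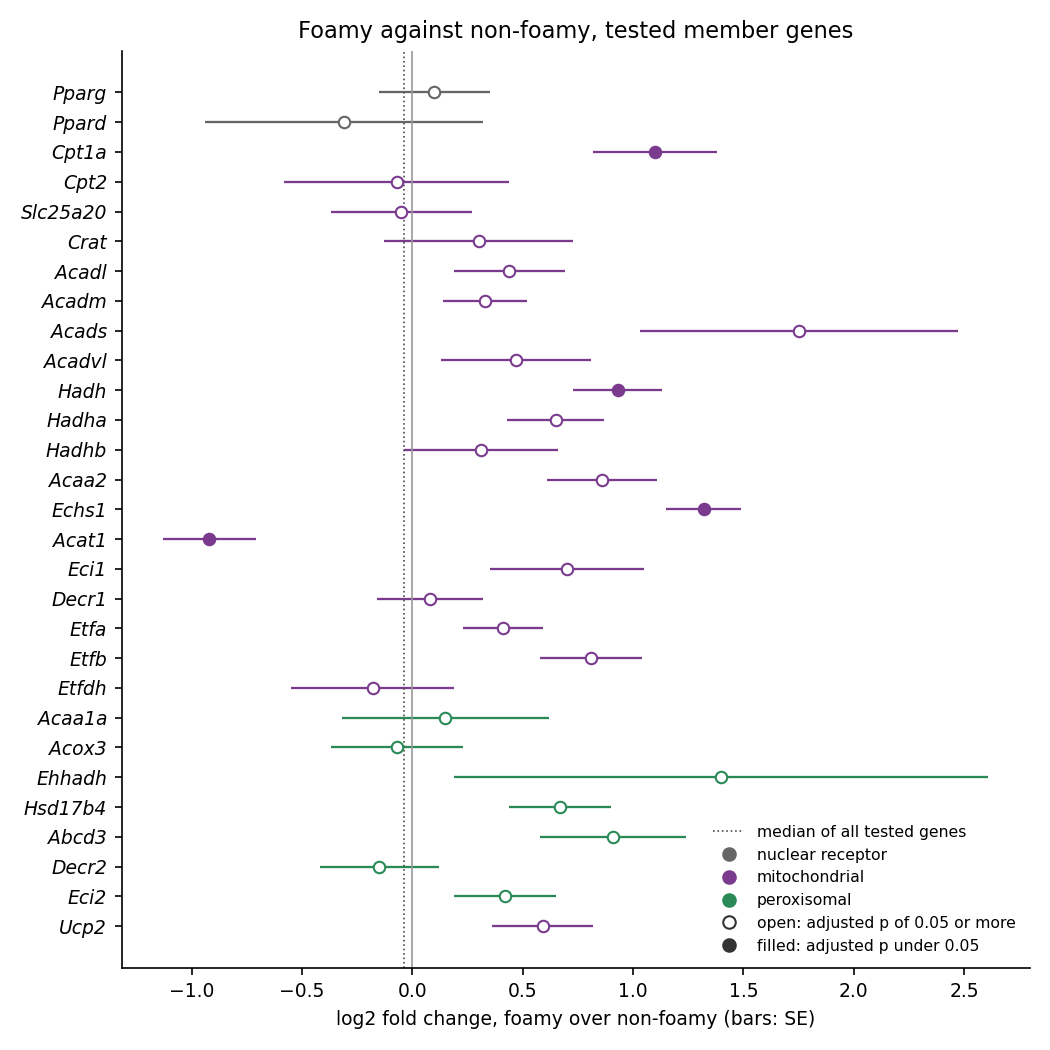
Fitted log2 fold change, foamy over non-foamy, of the 29 tested genes with error bars of 1 SE, ordered by role. The 4 genes that passed the test are marked, and 22 points lie above 0.

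Of 7 peroxisomal genes none passed edgeR's test, 2 were higher at an unadjusted p under 0.05, and DESeq2 and limma-voom called none. Over all tested genes edgeR called 2.5% higher and 2.9% lower, and 8.63% were higher at an unadjusted p under 0.05. At these shares, 0 calls among 7 genes do not set the peroxisomal genes apart. Of all 29 genes limma-voom called 2 higher, Echs1 and Hadh, and 1 lower, Acat1, where it called 2.47% and 2.29% of all tested genes (4.76% in either direction). Over the peroxisomal genes the log2 fold change was above 0 in 5 of 7, with a median of 0.42. Over the 20 tested mitochondrial genes it was above 0 in 16, with a median of 0.45. Hsd17b4, the D-bifunctional protein that hydrates and dehydrogenates chains in the peroxisome, had 69.3, 74.4 and 92.5 CPM in foamy libraries and 59.1, 48.5 and 41.2 CPM in non-foamy libraries. The groups did not overlap, but the difference did not pass (log2 fold change 0.67 with SE 0.23, adjusted p = 0.13 in edgeR). Abcd3, an ABC transporter that brings acyl-CoAs into the peroxisome, had 25.1, 33.4 and 46.2 CPM in foamy libraries and 15.9, 14.5 and 25.1 CPM in non-foamy libraries. Its lowest foamy and highest non-foamy libraries were at the same level to 3 digits (log2 fold change 0.91 with SE 0.33, adjusted p = 0.15 in edgeR).

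Eci2, a peroxisomal enoyl-CoA isomerase, had 53.5, 44.2 and 51.3 CPM in foamy libraries and 33.0, 37.8 and 40.9 CPM in non-foamy libraries, without overlap and without a call (log2 fold change 0.42 with SE 0.23, adjusted p = 0.38 in edgeR). Acox3, an acyl-CoA oxidase of branched chains, averaged 33.7 ± 2.05 CPM in foamy against 35.3 ± 12.2 CPM in non-foamy macrophages (SD, n = 3 each). Decr2, the peroxisomal dienoyl-CoA reductase, averaged 50.3 ± 12.9 CPM in foamy against 55.9 ± 13.3 CPM in non-foamy macrophages, and the thiolase Acaa1a 8.96 ± 3.55 CPM in foamy against 8.08 ± 1.51 CPM in non-foamy macrophages. These 3 genes overlapped between populations. Acaa1a shares 290 exonic bases with Myd88.

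Ehhadh, the L-bifunctional enzyme of the peroxisome and a classical PPAR alpha target in liver, had low counts, with 59, 44 and 68 counts in foamy libraries and 58, 3 and 2 counts in non-foamy libraries. Non-foamy replicate 1 stood with the foamy libraries and apart from its own group. Among the 6 libraries it had the fewest counts in genes (15628627) and the most genes with a count (24701), and the part of this in the results was not tested. The log2 fold change was 1.4 (SE 1.21, edgeR adjusted p = 0.62) and became 4.57 without that library (edgeR adjusted p = 0.055). Whether mitochondrial and peroxisomal genes differed from each other in their response was not tested.

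Ucp2, an uncoupling protein of the inner mitochondrial membrane with high levels in macrophages, had 1495, 1251 and 1469.8 CPM in foamy libraries and 609, 1163 and 1031 CPM in non-foamy libraries. The groups did not overlap, and non-foamy replicate 1 stood lowest (log2 fold change 0.59 with SE 0.23, adjusted p = 0.19 in edgeR). Pdk4, the kinase that turns off pyruvate dehydrogenase and a PPAR target in muscle and liver, had 0, 1 and 20 counts in foamy libraries and 6, 2 and 1 counts in non-foamy libraries. It was too sparse for the test, and 1 foamy library held 20 of its 21 foamy counts.

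Summed by role, the spiral genes had 833, 796 and 816 CPM in foamy libraries and 489.6, 538 and 529.7 CPM in non-foamy libraries, with a spread inside each population smaller than the gap between them. The electron transfer genes summed to 409, 401 and 356 CPM in foamy libraries and 249, 281 and 291 CPM in non-foamy libraries. The peroxisomal genes summed to 259, 246 and 273 CPM in foamy libraries and 222, 189.6 and 205 CPM in non-foamy libraries. With TMM scaling all 3 sums lay higher in every foamy library, and each is weighted to its most abundant genes. By total counts only, the peroxisomal sum of non-foamy replicate 1 stood above those of the foamy libraries, so that order depends on the scaling. The carnitine shuttle sums overlapped, at 119.5, 104 and 138 CPM in foamy libraries and 72.1, 121 and 79.4 CPM in non-foamy libraries.

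Per kilobase of annotated exons, Ucp2, Etfb, Etfa and Acaa2 were the 4 highest of the 31 genes in both populations, in that order. Their mean levels per kilobase were 201, 164, 88.1 and 78.2 CPM in foamy macrophages and 134, 93.2, 66.4 and 43.2 CPM in non-foamy macrophages. Echs1 stood at rank 5 in foamy macrophages (53.0 CPM per kilobase) and at rank 10 in non-foamy macrophages (21.2 CPM per kilobase). Acat1 stood at rank 15 in foamy macrophages (13.4 CPM per kilobase) and at rank 7 in non-foamy macrophages (25.5 CPM per kilobase). The lowest ranks held Ppara, Pdk4, Ppard and Ehhadh in both populations. All annotated exons of a gene enter its length, so ranks between genes depend on that length and are not direct measures of transcript number.

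Lists of related genes place the 31 in their pathway. Of 24 tested genes of other mitochondrial oxidation, from ketone body, branched-chain and propionate enzymes to thioesterases, edgeR called none, although the log2 fold change was above 0 in 21, with a median of 0.47. At an unadjusted p under 0.05, 6 were higher and 0 lower, DESeq2 called 2 higher and limma-voom called none. Hsd17b10, which acts on short branched chains, averaged 147.5 ± 13.3 CPM in foamy against 90.5 ± 14.8 CPM in non-foamy macrophages (log2 fold change 0.70 with SE 0.20, adjusted p = 0.068 in edgeR). The thioesterase Acot13 came next by p, at a log2 fold change of 0.70 (edgeR adjusted p = 0.11).

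Of 26 tested other peroxisomal enzymes and transporters, edgeR called none, with a median log2 fold change of 0.11 (-0.15 with total counts only). Unadjusted, 4 were higher and 2 lower, and DESeq2 called 1 higher and limma-voom none. Phyh, which begins the alpha oxidation of phytanic acid, averaged 150.4 ± 8.34 CPM in foamy against 90.8 ± 13.4 CPM in non-foamy macrophages (log2 fold change 0.73 with SE 0.19, adjusted p = 0.051 in edgeR). Cat, catalase, averaged 283.9 ± 61.7 CPM in foamy against 187.9 ± 22.3 CPM in non-foamy macrophages, and did not pass either (edgeR adjusted p = 0.12). Of 14 tested peroxins, the proteins that build peroxisomes, edgeR, DESeq2 and limma-voom called none and none had an unadjusted p under 0.05, and the median was 0.00. The peroxin with the lowest p was Pex11g (log2 fold change 1.58, SE 0.78), at 2.32 without non-foamy replicate 3.

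Of 17 tested PPAR target genes outside oxidation, 5 rose and 1 fell, where 2.5% and 2.9% of all tested genes did. The median log2 fold change of the list was 0.67 (0.41 with total counts only). Over the alternatives the median ran from -0.47 to 0.90, where filters and left-out libraries change which genes of the list are tested. Whether this list differs from the oxidation genes was not tested. Fabp4, a fatty acid carrier, averaged 144.7 ± 40.3 CPM in foamy against 11.7 ± 1.12 CPM in non-foamy macrophages (log2 fold change 3.63 with SE 0.27, adjusted p = 3.8e-05 in edgeR). Slc27a1, a fatty acid transporter, had 66.1, 64.6 and 61.2 CPM in foamy libraries and 23.3, 19.0 and 21.9 CPM in non-foamy libraries (a log2 fold change of 1.58 with SE 0.23, adjusted p = 0.0025 in edgeR). Lpl, lipoprotein lipase, rose with a log2 fold change of 1.33 (edgeR adjusted p = 0.0016) and Plin2, the coat protein of lipid droplets, with 1.24 (edgeR adjusted p = 0.0016). The fifth was Cd36, a scavenger receptor named here after its values were seen, with 0.84 (edgeR adjusted p = 0.017). Klf10, a TGF beta-inducible transcription factor, fell, at 56.0 ± 6.64 CPM in foamy against 192.5 ± 20.3 CPM in non-foamy macrophages (log2 fold change -1.78 with SE 0.20, adjusted p = 0.00038 in edgeR). Of 18 tested PPAR partners and coregulators, edgeR, DESeq2 and limma-voom called none, and 0 were higher and 2 lower at an unadjusted p under 0.05, with a median of -0.10. The lowest p in that list belonged to Nrip1, a nuclear receptor corepressor, and Ncoa3, a coactivator, at log2 fold changes of -1.05 and -0.66 (edgeR adjusted p = 0.21 and 0.26). Of 14 tested genes of pyruvate dehydrogenase and uncoupling, these tools called none, and 1 was higher and 0 lower at an unadjusted p under 0.05, with a median of 0.01. The lowest p there belonged to Dld, a subunit of pyruvate dehydrogenase, and Slc25a14, at log2 fold changes of 0.59 and 0.74 (edgeR adjusted p = 0.11 and 0.31). With total counts only, the medians of the peroxins and of this list were -0.24 and -0.26, beside -0.31 over all tested genes.

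**Figure D4:**
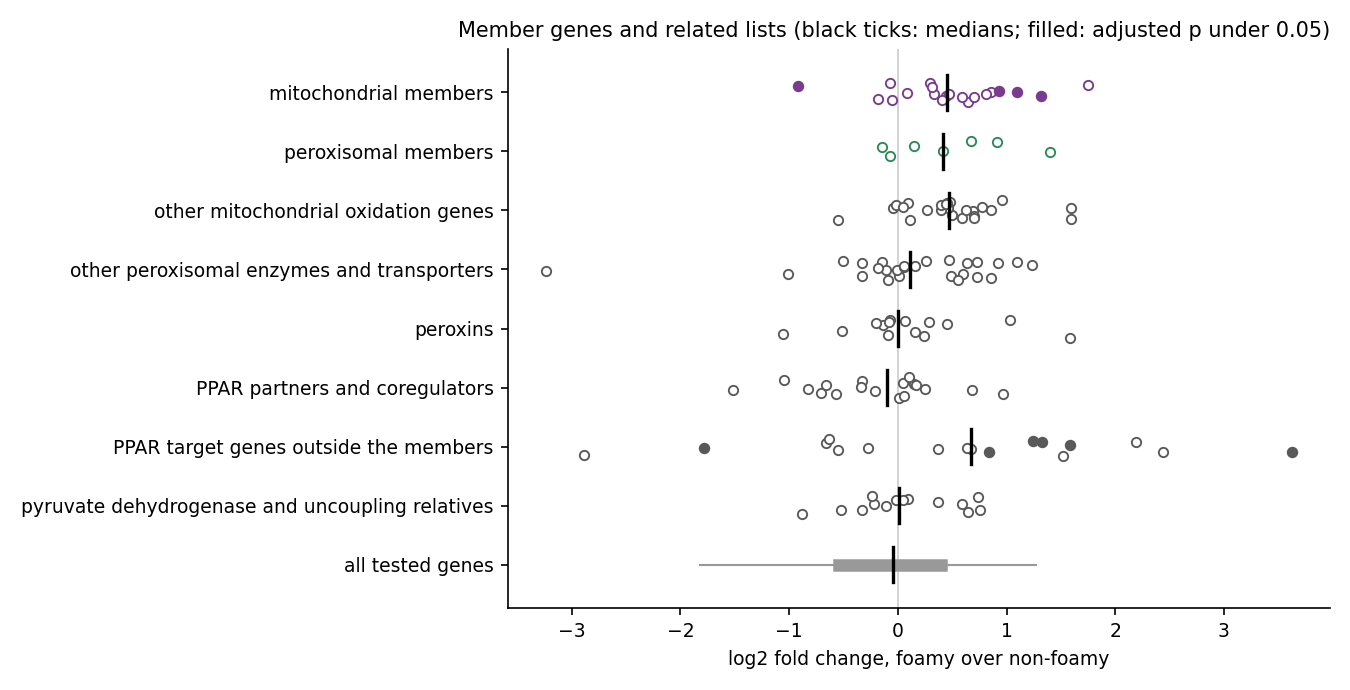
Log2 fold change, foamy over non-foamy, of every tested gene of each list, with medians as black ticks and filled points for genes that passed the test. The bottom bar gives the quartiles of all tested genes, with a line over their central 90%. The genes of mitochondrial oxidation lie mostly above 0, and among the filled points of the PPAR target list are Klf10 at -1.78 and Fabp4 at 3.63.

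**Figure D5:**
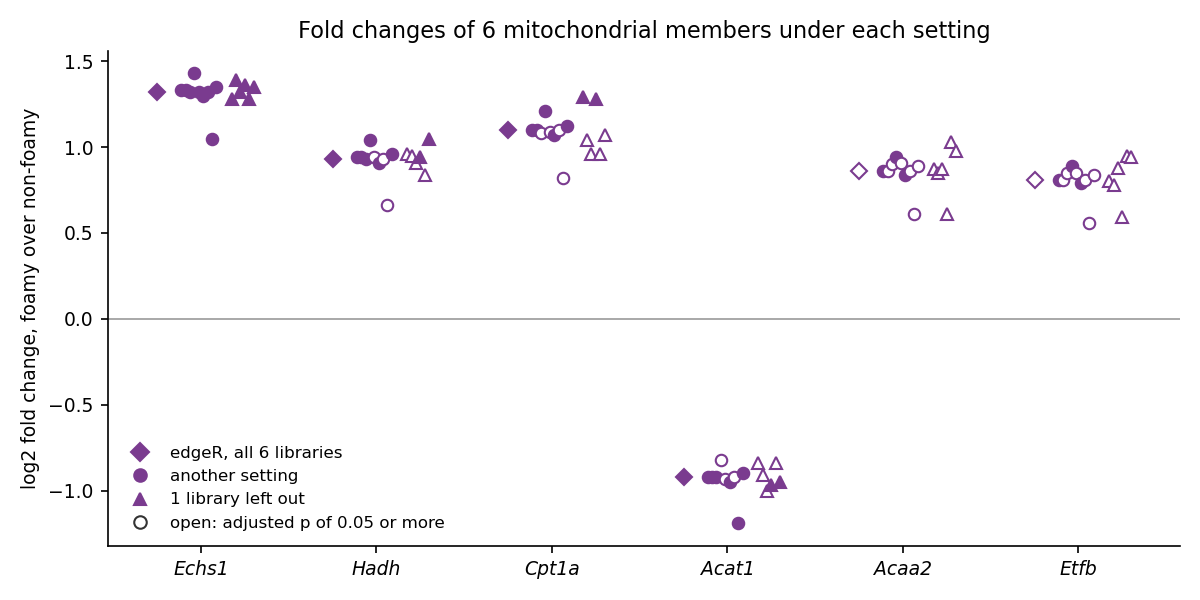
Log2 fold change of Echs1, Hadh, Cpt1a, Acat1, Acaa2 and Etfb with all 6 libraries in edgeR (diamonds), under 9 other settings (circles) and with 1 library left out (triangles), filled where the adjusted p was under 0.05. Echs1 passes under all settings, while the others pass under some of them.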

How the data were processed

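Per the labels' protocols, cells from digested aortic intima were sorted and cDNA came from the SMARTer Ultra Low RNA kit. The submitters' processing notes list the build GRCm38 and the tools featureCounts 1.4.5, STAR 2.0.4b and Subread. Whether counting used strand, or reads that map to several places, is not given in the sources used here. The deposited counts are raw, in whole reads per gene. The deposited CPM equal the count over the library's total and the deposited RPKM that CPM per kilobase, to an absolute tolerance of 1e-06, and neither entered a test. The protocols name no molecular identifiers, so floors cover counting error only. Symbols came from GENCODE M21 by Ensembl ID and were found for 40340 of 41388 genes.

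Counts were tested in edgeR 4.0.16 under R 4.3.3 (filterByExpr, TMM, robust quasi-likelihood test, Benjamini-Hochberg adjustment over 11303 genes, threshold 0.05), without a replicate block. Fold changes put foamy over non-foamy. The SE was taken as the absolute log2 fold change over the square root of F. TMM factors were 0.868 to 0.966 in foamy and 1.03 to 1.19 in non-foamy libraries. edgeR gave a biological coefficient of variation of 0.505. Within groups, libraries differed beyond sampling noise (chi-square over its degrees of freedom, 50.74 to 143.4). Alternatives were DESeq2 1.42.0, limma-voom 3.58.1, other scalings, filters, a 1.5-fold test, a replicate block and each library left out; leaving out non-foamy libraries for the limit on Ppara was chosen after seeing the data. The steps of the main edgeR fit were tried on simulated counts with known changes, and the other steps were not. Exact permutation tests used scipy 1.17.1.

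All 31 genes are named. Of each related list, up to 4 genes called in either direction were named, or 2 where none was called, by the smallest p; 1 gene named by this rule is not reported here. The genes and lists were chosen with earlier results of these data known. A planned comparison of protein sequences was not run.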

Additional observations from a re-analysis of the deposited data

How the results depend on the processing

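Of 432 values of single genes under 15 alternatives, 383 kept direction and side of the threshold, 22 lost the call, 6 gained it and 21 changed sign, and the cause was not tested. Echs1 passed under all 15, and 0 peroxisomal genes were called higher under any. With 0.929% to 4.62% of all genes called higher under these settings, 0 of 7 does not set the peroxisomal genes apart. Of the 29 genes, DESeq2 called 5 higher and 1 lower (4.62% and 5.69% of all genes), no filter 5 and 0 (1.57% and 1.48%), the stricter filter 5 and 1 (4.11% and 5.01%), the 1.5-fold test 1 and 0 (0.929% and 1.51%), and total counts only 1 and 1 (1.46% and 5.43%). With 1 library left out, 1 to 3 were called higher (0.953% to 2.43% of all genes) and 0 to 1 lower (1.33% to 2.51%). Among these fits, 1 was higher (Echs1) and 0 lower without replicate 2 or 3 of foamy or replicate 2 of non-foamy macrophages. Those of the 29 genes called higher under any alternative are mitochondrial, as are 20 of the 29. All genes called were 611, against 1163 in DESeq2, 276 in the 1.5-fold test and 271 to 579 with a library left out. The median log2 fold change was 0.51 with no filter, 0.15 with total counts only and 0.33 to 0.62 with a library left out. With the replicate number as a block, 1 gene was called higher (Echs1), 0 lower and 391 of all genes (1.41% higher and 2.05% lower). In their deviations from the group means, same-numbered libraries correlated at -0.0706, -0.0227 and -0.0313, and differently numbered ones at -0.0316 to 0.0626. Same-numbered libraries were thus no more alike than others. With 3 libraries a group this cannot decide whether a shared number means shared mice, which the labels do not give. Genes whose log2 fold change turned, none of them called, were Cpt2 (-0.46 without non-foamy replicate 1 to 0.69 without non-foamy replicate 2, 0.18 with limma-voom, 0.00 with no filter, 0.20 with the block, 0.15 without foamy replicate 2), Acox3 (-0.30 without non-foamy replicate 3 to 0.17 without non-foamy replicate 1, 0.03 with limma-voom, 0.06 with no filter), Slc25a20 (-0.26 without non-foamy replicate 1 to 0.23 without non-foamy replicate 2, 0.04 with no filter, 0.14 without foamy replicate 2), Pparg (-0.16 with total counts only, -0.05 without foamy replicate 3, -0.01 without non-foamy replicate 2), Decr1 (-0.19 with total counts only, -0.02 without foamy replicate 3 to 0.22 without non-foamy replicate 2), Acaa1a (-0.11 with total counts only, -0.09 without foamy replicate 1 to 0.45 without foamy replicate 3), Decr2 (-0.36 without foamy replicate 1, 0.02 without foamy replicate 3 and 0.02 without non-foamy replicate 3) and Etfdh (-0.48 without non-foamy replicate 2 to 0.36 without non-foamy replicate 1). With 3 libraries a group, a difference that missed the threshold is not shown to be absent, and Ppara, Pdk4 and Ehhadh are limited by their counts.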

Other observations

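Over the 6 libraries, the genes whose levels followed that of Echs1 most closely were Gusb, the lysosomal beta-glucuronidase (Pearson r = 0.998), Hpgds, a prostaglandin D synthase (0.998), Slc46a1 (0.997), Cdk15 (0.996) and Fam173b (0.995). The libraries fall into 2 groups that differ in Echs1, so these values describe a shared split and carry no test.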
